A study of Mus musculus with 480 samples.

Results

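The genes described here encode the proteins of the cytosolic ribosome. They were chosen by name: every protein-coding mouse gene called Rpl or Rps plus a digit, Rplp0 to Rplp2 and Rpsa, without the Rps6k kinases, Rps19bp1 and names that mark a pseudogene. The rule found 85 of the 53379 genes in the count table. Of these, 77 were the standard subunit genes and 8 were paralogs (Rpl3l, Rpl7l1, Rpl10l, Rpl22l1, Rpl36al, Rpl39l, Rps27l and Rps27rt). By subunit, 49 belonged to the large subunit, 33 to the small subunit and 3 to the stalk.

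A ribosome joins a small subunit, which reads the messenger RNA, to a large subunit, which forms the peptide bond, and the stalk proteins of the large subunit recruit the elongation factors. Cells make the proteins in matched amounts, and many of their messenger RNAs begin with a run of pyrimidine bases (a TOP motif) through which growth signals set their translation. A few genes have paralogs that replace the standard protein in some tissues. The epithelial cells of the lung that secrete much protein, the alveolar type 2 (AT2) cells and club cells, stand beside ciliated cells, which move mucus.

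The study sequenced 480 single tdTomato+ cells sorted from dissociated mouse lungs, 160 from each of 3 reporter lines, on 5 plates of 96 wells. BASCs-Tracer carried Sftpc-DreER, Scgb1a1-CreER and R26-RSR-LSL-tdtomato, a reporter opened only where both recombinases have acted. Scgb1a1-TD carried Scgb1a1-CreER and R26-tdtomato, and Sftpc-TD carried Sftpc-DreER and R26-RSR-tdtomato. The Sftpc-driven recombinase is meant to mark AT2 cells and the Scgb1a1-driven one club cells. All 3 lines therefore carried an inducible recombinase and a tdTomato reporter, and no group without them is analysed here. The labels gave every cell a sub-type: bronchioalveolar stem cells (BASCs), club cell, AT2 or ciliated cell. They gave neither an animal nor an age. Each line therefore counts as 1 sample, and no test between groups was possible. Intervals below cover counting error only, not the spread between cells or plates. They treat reads as independent, which reads copied by PCR are not, so they are too narrow even for counting error.

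There were 8 groups of 6 cells or more, each a line and a sub-type. BASCs-Tracer gave 85 BASCs on plate 1 and 53 on plate 2, 15 club cells and 6 AT2 cells. Scgb1a1-TD gave 97 club cells, 38 BASCs and 24 ciliated cells, and Sftpc-TD gave 60 AT2 cells on plate 4, 89 on plate 5 and 11 BASCs. The lone ciliated cell of BASCs-Tracer and the lone AT2 cell of Scgb1a1-TD entered no comparison. Cells held 3379 to 3781974 reads, with a median of 1000460. Plate 2 held cells of BASCs-Tracer and Scgb1a1-TD and plate 4 cells of Scgb1a1-TD and Sftpc-TD, while plates 1, 3 and 5 each held 1 line. Pooled over cells, defining markers set club and ciliated cells apart, while their summed lists gave no clear line between BASCs and AT2 cells. The 6 ciliated markers summed to 9032 CPM (counts of a gene scaled to a fixed library total) in ciliated cells against 377 CPM in Scgb1a1-TD club cells. The 6 club markers summed to 365749 CPM in Scgb1a1-TD club cells, and also to 44539 CPM in its ciliated cells. Single ciliated cells ran from 1945 over a median of 23218 to 291509 CPM. The highest was above the lowest club cell of that line (203976 CPM), and the main comparison kept it. The 8 AT2 markers summed to 335776 CPM in BASCs-Tracer BASCs and 329585 CPM in Sftpc-TD AT2 cells. Club markers in BASCs were at 26086 CPM (BASCs-Tracer), 12331 CPM (Scgb1a1-TD) and 17684 CPM (Sftpc-TD), against 12739 CPM in BASCs-Tracer AT2 cells and 16036 CPM in Sftpc-TD AT2 cells. Single club markers differed. Scgb1a1 was at 13416 CPM in BASCs and 3766 CPM in AT2 cells of BASCs-Tracer, and at 8464 and 1285 CPM in those of Sftpc-TD. In Scgb1a1-TD BASCs it was at 3518 CPM. Cbr2 went the other way in Sftpc-TD, at 7643 CPM in BASCs and 13919 CPM in AT2 cells. Club markers in Sftpc-TD BASCs had a median cell of 9784 CPM and a highest cell of 170295 CPM. The name BASCs is taken from the label here. Pan-leukocyte markers reached 50 CPM in 16 cells.

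Start-site sequences are shown first because the pyrimidine run is a known sequence feature of many genes of this class. Most listed member starts did not carry it at the first base. RefSeq (GRCm38.p6) listed 77 transcription starts for 65 members and none for the other 20. At 14 of the 77 starts (18.2%), in 14 of 65 genes, the base listed as first transcribed was C and 4 or more C or T bases followed it, read on the gene's own strand. The same held at 823 of 32851 starts of all genes (2.51%). With 6 or more such bases the shares were 12.99% and 1.08%. A run that started anywhere from 10 bases before to 10 bases after the listed start, a window chosen after seeing the data, was found at 54.5% of member starts and 30.7% of all starts. Below are 20 bases before a listed start and the 15 bases from it, with the run in capitals. The first 5 carry the run at that base, and the remaining 3 do not and belong to members at both ends of the ratios between ciliated and club cells. Rpl35a, Rps19 and Rps27l have other listed starts, which are not shown and do not carry the run.
Rps27 (chr3:90213634-90213668, minus strand): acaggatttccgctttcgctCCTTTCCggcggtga
Rps27rt (chr9:114982725-114982759, minus strand): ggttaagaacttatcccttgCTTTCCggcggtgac
Rps10 (chr17:27635230-27635264, minus strand): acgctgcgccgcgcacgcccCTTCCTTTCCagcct
Rps18 (chr17:33955651-33955685, minus strand): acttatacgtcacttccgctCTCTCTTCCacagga
Rpl35a (chr16:33056462-33056496, plus strand): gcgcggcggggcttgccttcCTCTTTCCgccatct
Rps19 (chr7:24884572-24884606, plus strand): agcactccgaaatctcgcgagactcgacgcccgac
Rps28 (chr17:33824548-33824582, minus strand): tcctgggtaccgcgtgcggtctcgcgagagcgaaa
Rps27l (chr9:66946066-66946100, plus strand): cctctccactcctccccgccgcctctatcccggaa

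Over all cells the members took 7268909 of 492096494 reads, or 1.48%. The load was spread widely: the 5 members with the most reads held 22.6% of member reads. Of the 85 genes, 69 had a read in 90% or more of cells, and 4 (Rpl10, Rplp1, Rps14 and Rps19) had one in every cell. Per kilobase of exon, the highest pooled levels were those of the stalk genes Rplp0 (437 CPM per kb) and Rplp1 (433 CPM per kb), and Rps27 (387) and Rpl41 (355) were also among the 5 highest. Rpl41 is the gene of the shortest ribosomal protein. The third stalk gene, Rplp2, lay at 36.1 CPM per kb. Length here joins the exons of all annotated transcripts of a gene, 2072 bases for Rplp2 and 499 for Rplp1. Without division by length Rplp2 was at 74.7 CPM and Rplp1 at 216 CPM, so levels per kb also depend on the annotation. Among standard members the median was 64.2 CPM per kb for 43 large-subunit genes and 83.5 CPM per kb for 31 small-subunit genes.

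At the low end, 8 members had a read in fewer than 60% of cells. Rpl10l and Rpl39l had no read in any cell, which allows up to 0.0061 CPM. Rpl3l, the paralog of Rpl3 known from striated muscle, had 66 reads in all, 65 of them in 1 AT2 cell of Sftpc-TD. Rpl24 (0.404 CPM per kb), Rpl36al (0.418), Rpl13a (1.26) and Rpl23a (2.60) stood far below the rest, since 74 of the 77 standard members were at 10 CPM per kb or more. Exons of another gene on the same strand lay over 46.99% of Rpl24 exon bases, 35.4% of Rpl13a and 24.5% of Rpl36al, and these were the 3 members of 85 with 20% or more. In Rpl23a 62.3% of exon bases lay under exons on either strand but 2.6% on the same strand. On either strand 11 members had 20% or more, among them Rpl35 with 66.2% at a level of 40.9 CPM per kb. The part of this overlap in the low counts was not tested. These genes are reported as uncertain.

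Among the other paralogs, Rps27l, a relative of Rps27 known as a p53 target, was as high as many standard genes at 172 CPM per kb. The Rps27 retrocopy Rps27rt stood at 75.3 CPM per kb, Rpl7l1, a relative of Rpl7, at 15.1 and Rpl22l1, the paralog of Rpl22, at 12.5. Rps27rt and Rps27 resemble each other closely, so the counting may have divided reads between them. The order of the 77 standard genes per kb was much the same in every group, as a description over genes: Spearman's rho between any 2 of the 8 groups lay between 0.863 and 0.986.

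**Figure D1:**
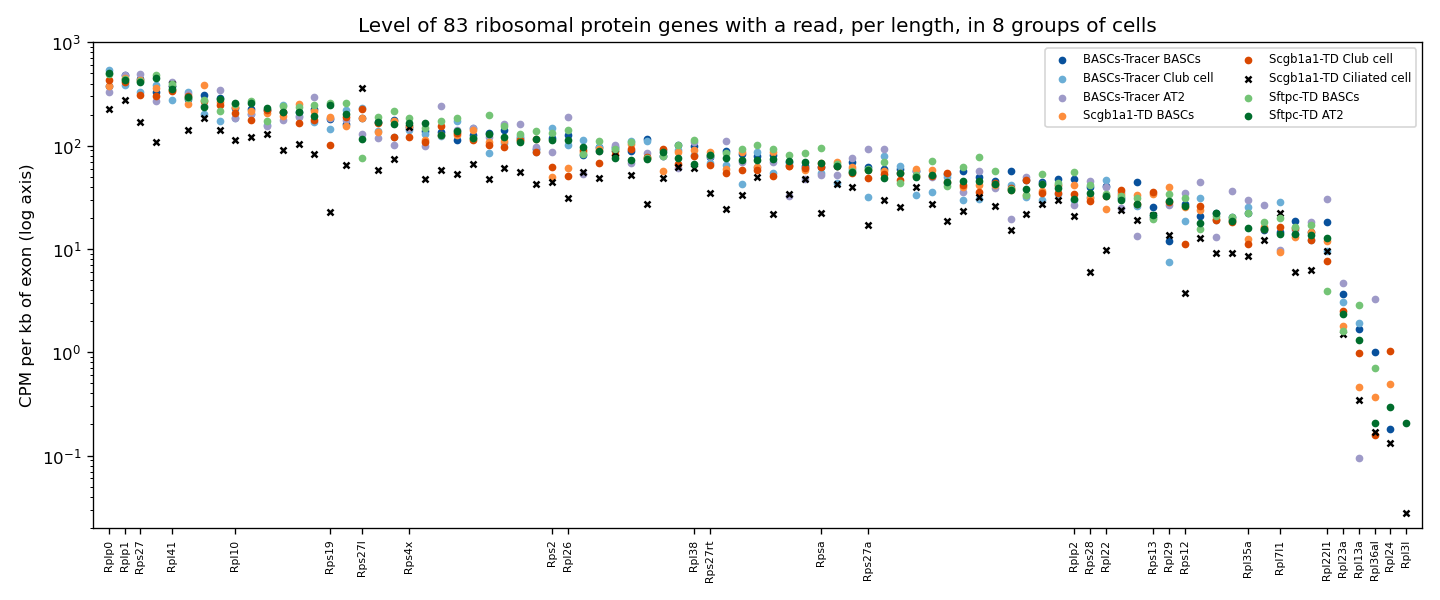
Pooled level per kilobase of exon (log axis) of the 83 members with a read, ordered by the level over all cells, with 1 point for each of 8 groups. Black crosses, the ciliated cells, lie below the other groups for most members, and Rps27l is the clearest exception; only some of the members are named, and values of 0 are not drawn.

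The share of reads in the 85 genes separated ciliated cells from the rest. In Scgb1a1-TD ciliated cells it was 0.775% (95% exact binomial interval 0.771% to 0.778%, 24 cells), against 1.33% (97 cells) in club cells of the same line. Single ciliated cells ran from 0.377% over a median of 0.777% to 1.36%, and club cells from 0.614% over 1.31% to 4.53%. Of the 24 ciliated cells, 23 lay below the club cell median, although the ranges overlapped. All 24 lay below the median of each of the other 6 groups. The share was low on each plate with ciliated cells, at 0.896% on plate 2 (5 cells), 0.756% on plate 3 (13 cells) and 0.776% on plate 4 (6 cells), where club cells had 1.33%, 1.38% and 1.14%. The only ciliated cell of BASCs-Tracer had 0.649%.

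BASCs and AT2 cells lay close together. The pooled share was 1.56% in BASCs-Tracer BASCs (cells 0.792% to 4.96%, median 1.48%), 1.46% in Scgb1a1-TD BASCs (0.820% to 4.48%, median 1.46%) and 1.76% in Sftpc-TD BASCs (1.26% to 2.45%, median 1.74%). AT2 cells had 1.58% in Sftpc-TD (0.799% to 4.37%, median 1.58%) and 1.49% in BASCs-Tracer (0.875% to 2.47%, median 1.45%). Club cells of BASCs-Tracer had 1.46% (0.855% to 2.18%, median 1.42%), which split by plate into 1.88% on plate 1 (7 cells) and 1.24% on plate 2 (8 cells). The ranges of these 6 groups and of Scgb1a1-TD club cells overlapped throughout. Reads in small-subunit genes per 100 reads in large-subunit and stalk genes ran from 68.6 in Scgb1a1-TD club cells to 79.8 in BASCs-Tracer AT2 cells, with 71.6 in ciliated cells.

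**Figure D2:**
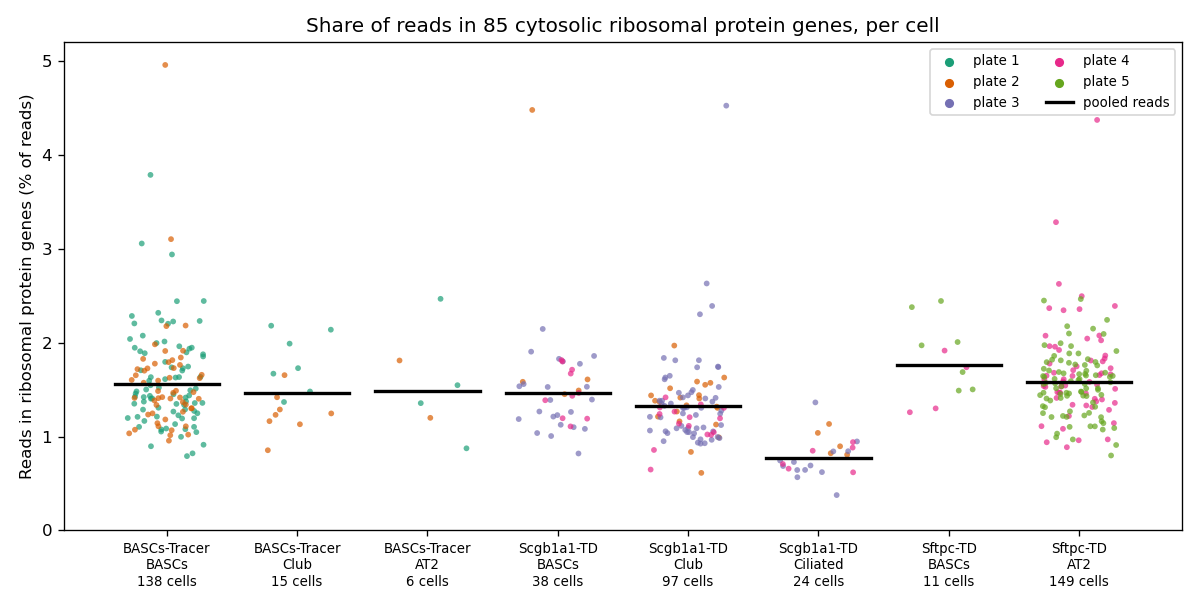
Percentage of each cell's reads that fell in the 85 genes, by group, coloured by plate, with the pooled share of the group as a black line. The ciliated cells sit between 0.377% and 1.36% around a pooled 0.775%, below the pooled lines of the other groups at 1.33% to 1.76%.

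A few cells stood far above their group. The share reached 2.5% in 11 cells, up to 4.96% in a cell of BASCs-Tracer BASCs with only 57442 reads. These 11 cells held 57442 to 1286719 reads, and none of them had 50 CPM of pan-leukocyte markers. Proliferation markers reached 50 CPM in 2 of the 11, against 33.1% of all cells. This sum of 6 genes rested largely on Pcna in some groups. In BASCs-Tracer BASCs Pcna held 69.7 of 71.3 CPM, and Mki67 was at 0.04 CPM. In Scgb1a1-TD club cells all 6 genes reached 5 CPM. Reaching the 50 CPM is therefore not read as cell division. Within the 3 largest groups the share followed depth only weakly: its Spearman's rho with total reads over cells was -0.09 in BASCs-Tracer BASCs, -0.15 in Scgb1a1-TD club cells and -0.21 in Sftpc-TD AT2 cells. With the mitochondrial share of reads rho was 0.27, 0.06 and 0.39.

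Ciliated and club cells, both of Scgb1a1-TD, were then compared gene by gene. Of the 85 members, 78 reached 5 CPM in either group. Their median log2 ratio of CPM + 1, ciliated over club, was -0.82, or 1.77-fold lower, while the median over all 12011 genes measured was 0.74. At 1.5-fold or more, 54 of 78 members were lower (69.2%) against 20.1% of all genes, and 1 was higher (1.28%) against 54.4% of all genes. Below 0 lay 72 of the 78. Standard members alone gave a median of -0.83 (74 genes). By subunit the medians were -0.82 for the large subunit, -0.85 for the small subunit and -0.70 for the stalk. Within plates the median was -0.66 on plate 2, -0.91 on plate 3 and -0.62 on plate 4, with 44, 55 and 40 members lower and 8, 2 and 6 higher. Medians over all genes there were 0.60, 0.64 and 0.63. Shares of all genes past the mark are not given for single plates, here or below. Counts of members within a plate therefore do not show how far they are particular to the members.

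Measured features of the libraries moved with this difference. The 10 genes with the most reads in each group took 9.38% of reads in ciliated cells and 40.6% in club cells. Thinned to 100000 reads, ciliated cells had a median of 4299 genes and club cells 3788. Leaving the mitochondrial genes and the 10 most abundant genes of all cells out of the total, the members' share was 0.840% in ciliated and 2.20% in club cells. On that scale the median ratio was -1.43 (2.69-fold lower) and that of all genes 0.08. Fewer ribosomal protein transcripts per cell and more of other transcripts cannot be told apart from read shares.

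Rps19, a small-subunit protein whose human gene is mutated in Diamond-Blackfan anaemia, differed most among the abundant members. Pooled levels were 107.97 CPM in ciliated cells (95% Poisson interval 103.67 to 112.4) and 471 CPM in club cells (467 to 475), a 4.33-fold difference. Ciliated cells ran from 6.05 over a median of 93.5 to 368 CPM, and club cells from 97.1 over 442 to 2007 CPM. All 24 ciliated cells were below the club cell median, on each of the 3 plates. Rps28, another small-subunit gene, was at 10.3 CPM (9.01 to 11.7) in ciliated and 50.2 CPM (48.8 to 51.6) in club cells, 4.53-fold lower, again with 24 of 24 cells below the club cell median. Rpl22, an RNA-binding protein of the large subunit, was at 28.4 CPM in ciliated cells against 95.6 CPM in club cells, 3.28-fold lower. Its plates lay close together, at 27.4, 28.3 and 29.001 CPM in ciliated cells.

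Rps12, a small-subunit protein, had no read in 15 of 24 ciliated cells and in 16 of 97 club cells. Pooled it was at 7.63 and 22.6 CPM. Rpsa, the laminin-receptor protein of the small subunit, was 2.75-fold lower (71.3 against 198 CPM), and Rps27a, made as a fusion with ubiquitin, 2.78-fold lower (33.8 against 95.6 CPM). Of the stalk genes, Rplp0 was at 373 CPM against 710 CPM, Rplp1 at 137.9 against 205 CPM and Rplp2 at 43.1 against 70.9 CPM. Rpl10, which joins the large subunit late, was at 231 against 423 CPM, and Rpl38, known for its role in Hox messenger translation, at 32.8 against 42.7 CPM.

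A small set of members was not lower in ciliated cells. Rps27l was the one member past 1.5-fold in the other direction, at 295 CPM (288 to 302) in ciliated and 185 CPM (182 to 187) in club cells, 1.59-fold higher. Ciliated cells spanned 74.6 to 1474 CPM with a median of 240, club cells 0 to 485 CPM with a median of 171, and 15 of 24 ciliated cells were above the club cell median. It was higher in all 9 pairings of a ciliated plate with a club plate. Rpl7l1 stood at 78.4 against 57.4 CPM, Rps4x, the X-linked form of S4, at 248 against 197 CPM, Rpl41 at 459 against 395 CPM and Rpl22l1 at 18.9 against 15.1 CPM. Rpl7l1 had no read in 9 of 24 ciliated cells, and its plate pairings ran from -1.73 to 1.66. On the total without the most abundant genes, Rps27l was 1.05-fold higher, Rps4x 1.21-fold lower and Rpl7l1 1.12-fold lower, so the direction for these genes is relative to the total used.

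**Figure D3:**
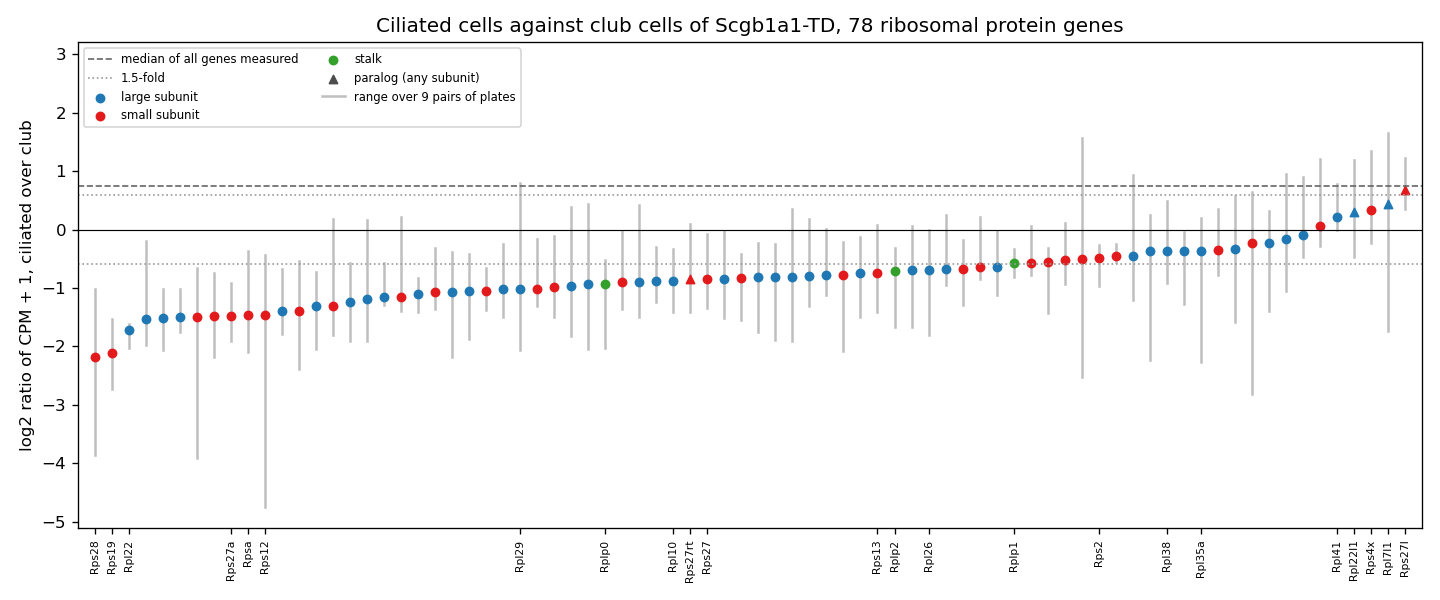
Log2 ratio of CPM + 1 in ciliated over club cells, both of Scgb1a1-TD, for the 78 members measured, ordered by the ratio, only some of them named, with grey bars for the range over the 9 pairings of plates. Most members lie below the lower 1.5-fold line while the median of all genes (dashed) is at 0.74, and Rps28, Rps19 and Rpl22 lie lowest.

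Other genes of translation did not all share the pattern. Of the ribosomal proteins that the naming rule misses, Fau was at 103.9 CPM in ciliated and 167 CPM in club cells and Rack1 at 85.4 and 178 CPM, both past 1.5-fold. In the list of 12 elongation factors and other TOP genes 4 were lower and 0 higher; Eef1a1 was at 765 against 1348 CPM, Eef2 at 545 against 453 CPM and Tpt1 at 183 against 363 CPM. Of 27 initiation factors 11 were higher and 7 lower, with Eif1 at 875 against 430 CPM. Ribosome biogenesis genes had 14 higher and 5 lower of 28, with Ncl at 205 against 126.3 CPM. Mitochondrial ribosomal proteins, encoded by a separate set of nuclear genes, had 34 higher and 10 lower of 77, and summed to 3711 against 2649 CPM. These counts stand beside the 54.4% higher and 20.1% lower over all genes. Members with the pyrimidine run at the listed start had a median of -0.74 (14 genes) and those with another listed start -0.84 (45 genes).

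BASCs-Tracer BASCs were set against Scgb1a1-TD club cells. The median ratio of 78 members was 0.23 (1.17-fold higher) beside 0.06 over all genes. Past 1.5-fold, 10 members were higher (12.8%, against 29.1% of all genes) and 1, Rpl29, lower (1.28%, against 24.9%). In both directions a smaller share of members than of all genes passed the mark. Within plate 2, the one plate with both groups, the median was 0.07 beside 0.05 over all genes, with 11 members higher and 5 lower. In this and the next comparisons the members given as highest and lowest are those among members at 50 CPM or more in the higher group. The 3 highest such ratios were those of Rpl26 (185 against 73.3 CPM), Rps12 (55.7 against 22.6 CPM) and Rpl35a (78.9 against 39.03 CPM), and the 3 lowest at that level those of Rps13 (68.7 against 95.7 CPM), Rpl28 (56.8 against 69.3 CPM) and Rps27l (152 against 185 CPM). Rps19 was also past 1.5-fold, at 856 against 471 CPM.

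Set against Sftpc-TD AT2 cells, BASCs-Tracer BASCs gave a smaller difference. The median was 0.11 beside 0.01 over all genes, with 5 members higher (6.41%, against 19.7%) and 1, again Rpl29, lower (1.28%, against 20.1%). Among all genes at 50 CPM or more, a filter chosen after seeing the data, 10.9% were higher and 13.7% lower. Rps10 (101.7 against 63.4 CPM), Rps27l (152 against 95.3 CPM) and Rps18 (286 against 183 CPM) were highest at 50 CPM or more. Rps19 (856 against 1154 CPM) and Rplp0 (626 against 837 CPM) were among the 3 lowest at that level, each under 1.5-fold. No plate held both groups, so plate and line cannot be told apart here.

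Within Scgb1a1-TD, BASCs against club cells gave a median of 0.11 beside -0.12 over all genes. Of 78 members 6 were higher (7.69%, against 26.1%) and 2 lower (2.56%, against 34.7%). Rps12 (51.3 against 22.6 CPM), Rps19 (878 against 471 CPM) and Rpl21 (293 against 171 CPM) were highest at 50 CPM or more, and each was higher in all 9 pairings of plates. Rpl7l1 (32.4 against 57.4 CPM), Rps26 (88.7 against 142.2 CPM) and Rpl11 (89.96 against 124.2 CPM) were lowest, and their plate pairings crossed 0. The within-plate medians were 0.61 on plate 2 (5 BASCs), 0.04 on plate 3 and 0.38 on plate 4. Over all genes they were -0.24, -0.24 and -0.16. Counts differed widely between plates, with 41 members higher and 0 lower on plate 2, 5 and 3 on plate 3, and 24 and 4 on plate 4.

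Within Sftpc-TD, the 11 BASCs against AT2 cells gave a median of 0.18 beside -0.33, with 6 of 79 members higher (7.59%, against 24.6%) and 2 lower (2.53%, against 43.7%). The median over all genes depended on their level: at 50 CPM or more, a filter chosen after seeing the data, it was 0.05, with 27.7% higher and 24.7% lower. The 72 members at that level had a median of 0.20, with 5 higher and 1 lower. The other member past 1.5-fold lower was Rpl22l1, with the lowest ratio of all (7.72 against 25.3 CPM). At 50 CPM or more the highest were Rplp2 (115.3 against 63.4 CPM), Rpl38 (62.1 against 35.97 CPM) and Rpl27a (213 against 126.9 CPM), and the lowest Rps27l (62.1 against 95.3 CPM), Rps6 (278 against 371 CPM) and Rpl36 (83.1 against 108.99 CPM). Rps6 is the protein that S6 kinases phosphorylate. On plate 5 alone, with 7 BASCs, the median was 0.36 beside -0.54 over all genes, with 18 members higher and 1 lower. Of the 11 BASCs, 1 held 6680 CPM of pan-leukocyte markers, and without the cells that held 50 CPM of them the median was 0.17.

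In club cells against AT2 cells, of Scgb1a1-TD and Sftpc-TD, the median was -0.12 beside -0.04, with 2 members higher (2.56%, against 26.1%) and 6 lower (7.69%, against 29.7%). Rps19 (471 against 1154 CPM, 2.45-fold lower), Rps12 (22.6 against 53.1 CPM) and Rpl26 (73.3 against 163 CPM) were lowest at 50 CPM or more. At that level Rps27l (185 against 95.3 CPM, 1.93-fold higher), Rps13 (95.7 against 57.9 CPM) and Rpl28 (69.3 against 54.3 CPM) were highest. On plate 4, which held 15 of the club cells and 60 of the AT2 cells, the median was -0.46 beside -0.14 over all genes. There 2 members were higher and 28 lower. With the reads of near-identical pseudogene copies added, 1 member was higher and 3 were lower, and Rpl26 (158 against 169 CPM) no longer passed the mark.

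The 15 BASCs-Tracer club cells against its BASCs gave a median of -0.20 beside -0.17, with 2 members higher (2.56%, against 29.9%) and 12 lower (15.4%, against 39.8%). At 50 CPM or more the median of all genes had the other sign, at 0.28, with 38.98% higher and 22.3% lower, while the 72 members at that level had a median of -0.20, with 2 higher and 10 lower. Rpl7l1 (99.3 against 50.8 CPM) and Rplp0 (906 against 626 CPM) were among the 3 highest at that level and Rpl17 (56.3 against 110.8 CPM), Rps27a (63.4 against 123.01 CPM) and Rpl36a (49.3 against 95.1 CPM) lowest. The median was 0.14 on plate 1, with 12 members higher and 3 lower, and -0.39 on plate 2, with 3 higher and 32 lower, so its direction differed between the plates. Over all genes the median was -0.20 on plate 1 and -0.35 on plate 2.

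Across the 8 groups, 62 of the 75 standard members at 5 CPM or more were lowest in ciliated cells. The highest level was most often that of Sftpc-TD BASCs (25 members) or BASCs-Tracer AT2 cells (23 members), the smallest groups. The same counts over all genes were not made, so how far they are particular to the members is not known. Rps19 and Rps27l ran in nearly opposite orders. From the lowest group, Rps19 went from 107.97 CPM in ciliated cells to 471 CPM in Scgb1a1-TD club cells and 680 CPM in BASCs-Tracer club cells. It then went to 856 CPM in BASCs-Tracer BASCs, 874 CPM in BASCs-Tracer AT2 cells and 878 CPM in Scgb1a1-TD BASCs. The highest were Sftpc-TD AT2 cells at 1154 CPM and Sftpc-TD BASCs at 1223 CPM. The 3 groups from 856 to 878 CPM lay within the spread of their plates, 823 to 1147 CPM, and the 2 groups of Sftpc-TD likewise, 1103 to 1254 CPM. Club cells of BASCs-Tracer held 1047 CPM on plate 1 and 486 CPM on plate 2, and so spanned both neighbours. Rps27l went from 62.1 and 95.3 CPM in Sftpc-TD over 105.9 CPM in BASCs-Tracer AT2 cells and 150, 152, 185 and 188 CPM in BASCs and club cells to 295 CPM in ciliated cells. Its plates ran from 256 to 318 CPM in ciliated cells and from 30.3 to 99.8 CPM in Sftpc-TD.

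**Figure D4:**
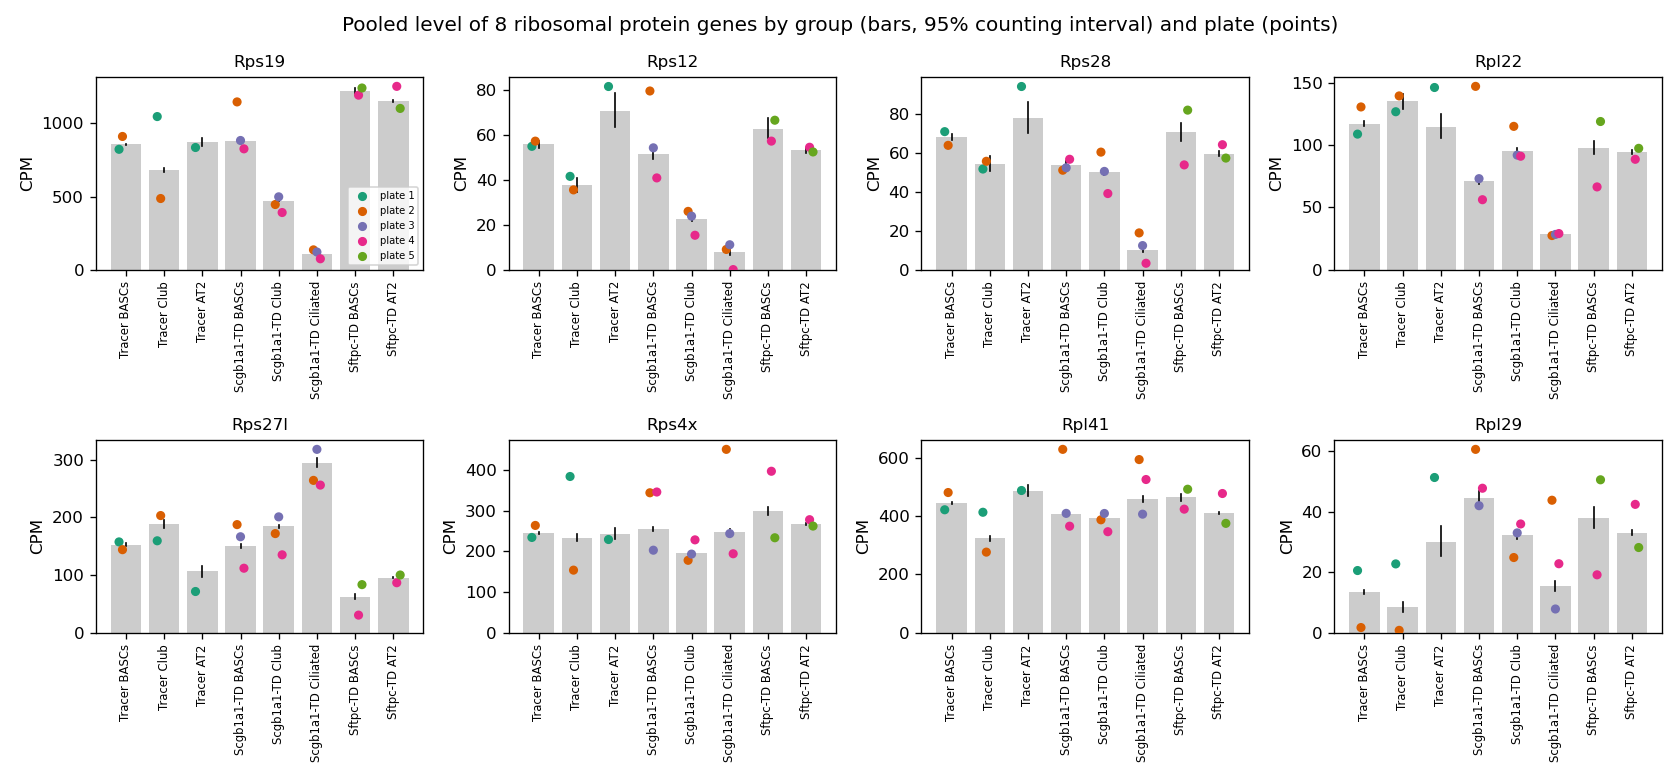
Pooled CPM of 8 members by group (bars from 0, with the 95% counting interval as a thin line) and by plate (points, for plates with 4 cells or more of the group). Rps19, Rps12, Rps28 and Rpl22 are lowest in ciliated cells, Rps27l is highest there at 295 CPM, and Rpl29 is near 0 in BASCs-Tracer cells of plate 2.

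In the deposited counts some members followed the reporter line more than the sub-type. BASCs-Tracer BASCs against Scgb1a1-TD BASCs, the same sub-type in 2 lines, gave a median of 0.11 beside 0.18, with 8 members higher (10.3%, against 32.6%) and 1, Rpl29, lower (1.28%, against 18.6%; 13.4 against 44.7 CPM). Among all genes at 50 CPM or more, 23.1% were higher and 11.2% lower. With pseudogene copies added 5 members were higher and 1 lower. Rps2, a small-subunit protein near the messenger RNA entry, was at 218 against 90.5 CPM, Rpl26 at 185 against 87.04 CPM and Rpl35a at 78.9 against 43.9 CPM. At 50 CPM or more the lowest were Rps13 (68.7 against 91.6 CPM), Rps3a1 (303 against 381 CPM) and Rpl14 (154 against 191 CPM), of which Rps3a1 changed sign once copies were added. Club cells of the 2 lines, compared after seeing the data, had the same directions for Rps2 (270 against 113.1 CPM), Rpl26 (147.9 against 73.3 CPM) and Rpl35a (90.7 against 39.03 CPM). Leaving ciliated cells aside, the 2 other groups of Scgb1a1-TD were below all 5 groups of the other lines for Rpl26 (73.3 to 87.04 against 147.9 to 276 CPM), Rps2 (90.5 to 113.1 against 161 to 270 CPM) and Rpl35a (39.03 to 43.9 against 56.4 to 105.7 CPM). Rps13 was above them (91.6 to 95.7 against 52.9 to 68.7 CPM). On plate 2 alone, which held only 5 Scgb1a1-TD BASCs, the median of BASCs was -0.46 beside 0.29 over all genes. There 2 members were higher and 33 lower, without the share of all genes past the mark beside them. Rps2 was 1.09-fold lower in BASCs-Tracer on that plate.

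Near-identical pseudogene copies carried line differences of their own, found after seeing the data. Across the annotation, 1075 pseudogenes matched 80 of the 85 members at 90% identity or more, and 612 of them had a read. They held 8.88 reads for every 100 member reads. At 20 CPM or more in some line, 5 copies differed 5-fold or more between lines. Rps2-ps13 (chromosome X, 52898588 to 52899469, GRCm38) matched Rps2 with 7 mismatches over 882 bases, and was at 78.8 CPM in Scgb1a1-TD against 1.39 CPM in BASCs-Tracer and 0.72 CPM in Sftpc-TD. Gm15772 (chromosome 5, 3236431 to 3236868) matched Rpl26 with 2 mismatches over 438 bases, and was at 83.9 CPM in Scgb1a1-TD against 5.75 and 4.94 CPM. The copies Rps3a2 (chromosome 14, 88123017 to 88123808) and Rps3a3 (chromosome 13, 108670603 to 108671397) of Rps3a1 ran the other way, at 1.93 and 3.88 CPM in Scgb1a1-TD against 42.4 and 81.8 CPM in BASCs-Tracer. Gm8730 (chromosome 8, 102864845 to 102865798), a copy of Rplp0, was at 65.7 CPM in BASCs-Tracer against 3.75 and 4.25 CPM.

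The stretches below show how little separates a member from its copy. Each pair is 50 bases of coding sequence with the differing bases in capitals, read from the transcripts of the annotation.
Rps2: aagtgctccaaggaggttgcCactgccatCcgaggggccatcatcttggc
Rps2-ps13: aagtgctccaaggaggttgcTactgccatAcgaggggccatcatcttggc
Rpl26: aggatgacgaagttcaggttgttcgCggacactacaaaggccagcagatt
Gm15772: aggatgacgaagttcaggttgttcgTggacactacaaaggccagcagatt
Rps3a1: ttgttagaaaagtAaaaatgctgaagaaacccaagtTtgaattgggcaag
Rps3a2: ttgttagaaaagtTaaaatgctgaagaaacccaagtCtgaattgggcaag

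Where a plate held 2 lines, the copies went with the line. On plate 2, Gm15772 was at 95.7 CPM in Scgb1a1-TD and 5.82 CPM in BASCs-Tracer, and on plate 4 at 89.5 CPM in Scgb1a1-TD and 5.54 CPM in Sftpc-TD. Rps2-ps13 was at 90.1 against 1.79 CPM on plate 2 and at 65.3 against 0.77 CPM on plate 4. Adding the reads of all matched copies to each member brought Rpl26 to 192 CPM in BASCs-Tracer BASCs, 201 CPM in Scgb1a1-TD BASCs and 158 CPM in Scgb1a1-TD club cells. Its ratio between the 2 groups of BASCs went from 1.08 to -0.07. For Rps2 the sums were 247, 170 and 228 CPM, and the ratio went from 1.26 to 0.54. For Rps3a1 they were 437, 389 and 274 CPM, and the ratio went from -0.33 to 0.17. The ratio of Rpl35a went from 0.83 to 0.62 and that of Rps13 from -0.41 to -0.30. Levels of Rps2, Rpl26 and Rps3a1 are therefore uncertain between lines, and reads of a member and of its copy were not told apart beyond the deposited counts.

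**Figure D5:**
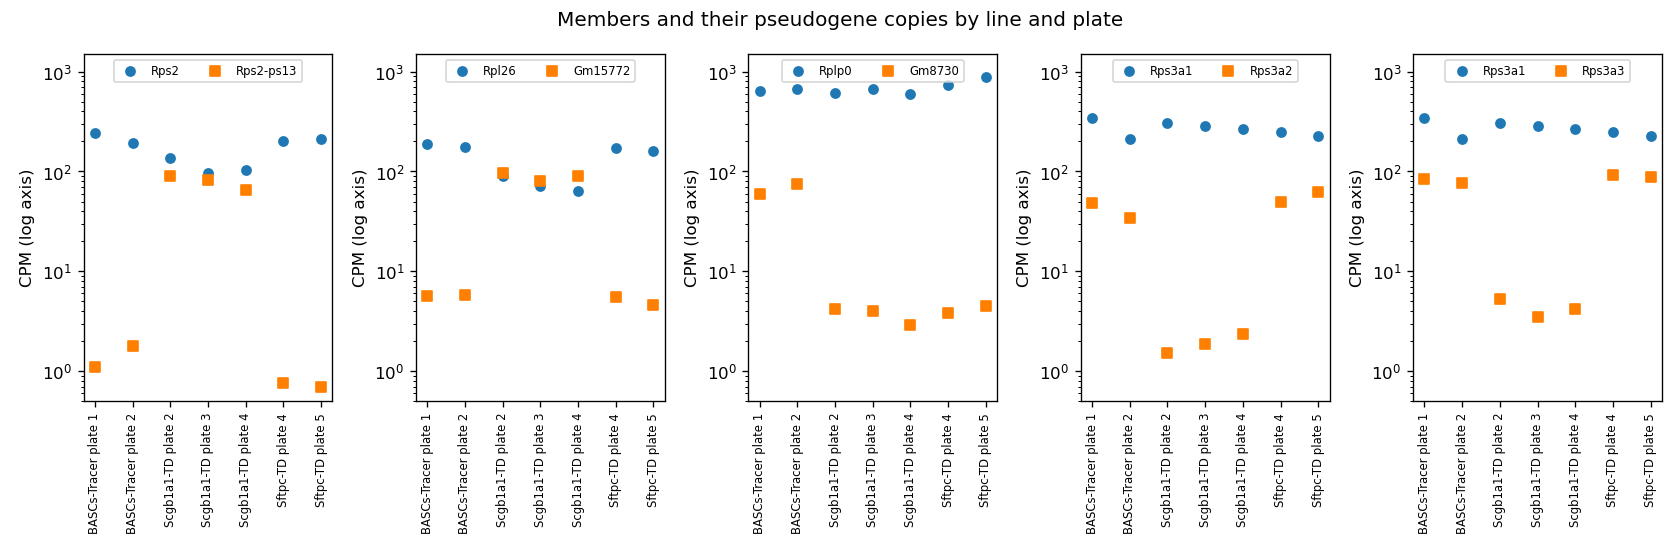
CPM (log axis) of 4 members (blue circles) and of 5 pseudogene copies (orange squares) in each line and plate. Rps2-ps13 and Gm15772 are high only in the 3 columns of Scgb1a1-TD, Rps3a2 and Rps3a3 are low only there, and Gm8730 is high only in BASCs-Tracer, also on the shared plates 2 and 4.

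Rpl29, a large-subunit protein, was low in BASCs-Tracer, at 13.4 CPM in BASCs and 8.35 CPM in club cells but 30.03 CPM in the 6 AT2 cells, against 32.2 CPM in Scgb1a1-TD club cells and 33.002 CPM in Sftpc-TD AT2 cells. Within BASCs-Tracer, BASCs held 20.5 CPM on plate 1 and 1.66 CPM on plate 2. Cells of Scgb1a1-TD on plate 2 did not share this: BASCs there held 60.7 CPM and club cells 24.9 CPM. With its pseudogene copies added, Rpl29 was at 29.4 CPM in BASCs-Tracer BASCs and 49.7 CPM in Scgb1a1-TD club cells.

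Over the cells of a group, members varied together to a moderate degree. Spearman's rho of a standard member's CPM with the sum of all other members had a median of 0.30 in BASCs-Tracer BASCs, 0.33 in Scgb1a1-TD club cells and 0.29 in Sftpc-TD AT2 cells. The values share each cell's library and depth. Rps19 was the member with the highest value in its weakest group (0.56, 0.58 and 0.61 in the 3 groups), followed by Rps27 (0.55, 0.59 and 0.52) and Rpl41 (0.59, 0.64 and 0.47). Rps27l was low (0.13, 0.10 and 0.20), and Rpl7l1 lay near 0 (0.07, -0.05 and 0.06).

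Among 1618 other genes at 50 CPM or more in these 3 groups, the 10 most like the summed members were ranked by their lowest rho. Among them were CT010467.1 (0.38), annotated as ribosomal RNA and at 5478 to 8450 CPM. Others were Tpt1 (0.34) and Eef1a1 (0.30), both on the list of elongation and TOP genes above, and Gm2000 (0.30). Npm1 (0.22), a nucleolar protein of ribosome assembly, Ptma (0.21), Fau (0.20), Fth1 (0.19) and Ndufa7 (0.19) were also among the 10. The median lowest rho over the 1618 genes was -0.10.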

How the data were processed

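The authors deposited 1 table of raw counts, whole numbers of reads for 53379 genes in 480 cells. Per the labels' protocols, sorted cells were reverse transcribed, amplified by PCR and tagmented with Nextera XT. The submitters' processing notes name HISAT2, HTSeq and GRCm38, both tools with a version not given in the sources used here. No molecular identifiers are in the deposited counts. Every column matched 1 cell's label, and doublets were not called. Gene IDs were matched to GENCODE M21 (53274 with a symbol).

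Counts were summed over the cells of a group, divided by all gene-assigned reads (CPM) and compared as log2 of CPM + 1, for genes at 5 CPM or more in either group, with 1.5-fold as the mark and no test. Shares carry exact Clopper-Pearson intervals and levels exact Poisson intervals at 95%. Copies were matched with BLAST+ 2.17.0 (90% identity, 100 bases, 50% of the copy). The ratio code was tested on simulated data. Python 3.11.15, numpy 2.4.6, pandas 2.3.3 and scipy 1.17.1 were used. The rule for named genes took, for each comparison, the 3 highest and 3 lowest ratios among members at 50 CPM or more in the higher group. It also took the 5 highest and 5 lowest levels per kb, the 5 standard members whose share of member reads varied most (Rpl24, Rps19, Rps12, Rpl29 and Rpl13a), and set paralogs, stalk and single genes. Members and lists were chosen with earlier results of these data known. Alternatives were another summation, scaling, total, pseudocount, cell and gene filter (also a minimum of 50 CPM, chosen after seeing the data), member set and plate set. Results for a few genes are not reported here.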

Additional observations from a re-analysis of the deposited data

How the results depend on the processing

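No paired analysis was possible because the result comes from no test and the cells carry no shared replicate numbers; plates with both groups gave the within-plate values instead. Over all alternatives to the 8 medians, 6 values changed sign, the others kept it and 1 moved by over 1.5-fold: with mitochondrial genes and the 10 most abundant genes out of the total, ciliated against club cells went from -0.82 to -1.43, its range over all alternatives being -1.43 to -0.66, with 44 to 72 members lower. The median of all genes there went from 0.74 to 0.28 with median-of-ratios size factors and to 0.08 without the abundant genes. The share of all genes past the mark under each alternative is not given here. BASCs-Tracer BASCs against Scgb1a1-TD BASCs changed sign with size factors (-0.13), without the abundant genes (-0.03), without plate 3 (-0.01) and on plate 2 alone (-0.46). BASCs-Tracer club cells against its BASCs did so with size factors (0.03) and without plate 2 (0.14). Of named members past 1.5-fold, 2 values changed sign, both between the 2 groups of BASCs: Rps2 on plate 2 alone (-0.12) and Rpl26 with copies added (-0.065). Rps3a1, under 1.5-fold there, also changed sign with copies added (-0.33 to 0.17). In all, 11 of 528 values of named members changed sign. In 64 cases a count of members past 1.5-fold moved by over 1.5 times, or to or from 0, and in 160 cases it did not. As a mean over cells, shares were, in BASCs-Tracer 1.54% in AT2 cells, 1.60% in BASCs and 1.504% in club cells, in Scgb1a1-TD 1.53% in BASCs, 0.795% in ciliated and 1.34% in club cells, and in Sftpc-TD 1.62% in AT2 cells and 1.79% in BASCs. Without the abundant genes they were 2.32%, 2.57%, 2.07%, 2.68%, 0.840%, 2.20%, 2.59% and 2.97% in the same order. The pyrimidine run within 10 bases of the start was found at 54.5% of member starts. The limits are 1 sample for each line, no named animals, few cells in 3 groups, plates that mostly hold 1 line, and copies that share reads with members.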
